A study of Rattus norvegicus with 9 samples.

Results

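The cytosolic ribosomal proteins were taken as the genes whose name on the array starts with Rpl (large subunit) or Rps (small subunit), leaving out the Rps6k kinases. This gave 96 of 26115 gene names, 59 for the large and 37 for the small subunit, measured by 168 of 30367 probes. Of these genes 91 passed the filter on dim probes (55 large, 36 small) and were tested among 13769 genes. The names also take in 18 paralogs, like copies and a binding protein of Rps19, of which 13 were tested.

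Each array measured the RNA of 1 rat kidney, labelled with a single dye, Cy3, on an Agilent array of oligos of 60 bases. The donors were F344 rats, and all kidneys of both groups had 20 min. of warm ischaemia in a model of donation after circulatory death. NP kidneys (n = 5) were not perfused, by their treatment label and the methods of the study, although their titles and descriptions name a perfusion with Belzer solution. MSC kidneys (n = 4) had 4 hrs of cold perfusion (4°C), and their Belzer solution carried 3000000 mesenchymal stromal cells, grown from the bone marrow of transgenic SD rats that express EGFP. The groups therefore differ in the perfusion as well as in the cells, and the 2 cannot be told apart. A further MSC array that the study discarded for poor quality was not analysed here. The methods give the rats a common weight range and no age.

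The cytosolic ribosome joins amino acids into protein in the order read from an mRNA. Its small subunit holds the mRNA and reads the codons, and its large subunit forms the peptide bond, with a stalk of acidic P proteins that calls in the elongation factors. Ribosomal protein mRNAs are among the most abundant of any tissue. Most start with a run of pyrimidines (C or T in DNA letters) at the cap, the TOP motif, through which mTOR and LARP1 are known to govern how many of these mRNAs are translated. A change in their translation need not be seen in the level of the mRNA, which is what an array measures.

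The pyrimidine run is shown for some of the genes discussed below, since it is a feature that many of these mRNAs share. Other genes discussed below, Rpl11, Rpl13a and Rps6 among them, had no such run at the start that RefSeq gives. RefSeq start sites on build GRCr8 were matched to 76 of the 96 genes. At the start site 39 of the 76 (51.3%) had a run of at least 5 C or T letters that includes the first transcribed base. This was so for 12% of the 33469 promoters in the table. The share was 48.9% for 47 large subunit genes and 55.2% for 29 small subunit genes. The run counts letters before the start as well as after it, so the mRNA itself may start with fewer. In Rpl36a, for example, a g follows the first base. These shares are therefore not those of the TOP motif. A C was the first base in 47.4% of the members and in 24.1% of all promoters. Each window holds 20 bases before the start and 20 from the start on, 5′ to 3′, with the run in capitals.
Rpl12 (chr3:36661920-36661959, plus strand): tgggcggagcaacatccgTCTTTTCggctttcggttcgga
Rpl36a (chrX:102059429-102059468, plus strand): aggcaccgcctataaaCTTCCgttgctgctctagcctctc
Rps15 (chr7:10068096-10068135, minus strand): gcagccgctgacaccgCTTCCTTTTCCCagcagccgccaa
Rps18 (chr20:4933725-4933764, plus strand): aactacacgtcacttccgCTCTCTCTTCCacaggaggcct
Rps27a (chr14:107488922-107488961, minus strand): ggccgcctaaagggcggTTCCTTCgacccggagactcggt
Rplp0 (chr12:46718371-46718410, minus strand): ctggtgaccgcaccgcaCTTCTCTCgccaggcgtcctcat
Rpl5 (chr14:1995206-1995245, minus strand): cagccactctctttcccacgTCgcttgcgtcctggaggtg
Counted on both sides of the start, the runs of Rps15 (12 letters) and Rps18 (11) were the longest of these. Rpl5 had only 2 at the start that RefSeq gives. In the promoter from 250 bases before to 50 after the start, CCGGAA on either strand was in 47.4% of the members and 15% of all promoters, and AAGATGG on either strand in 14.5% and 7.01%. These letters are a description of the windows, and nothing about binding was measured.

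The arrays lay on 2 slides, which both held both groups: NP replicates 1, 2 and 3 with MSC replicates 1 and 2 on slide 1, and the rest on slide 2. Between 65.6% and 74.3% of the gene spots were well above background, no gene spot was saturated, and pairs of arrays had an r of 0.961 to 0.997 over the genes tested. NP replicate 2 stood apart in its replicate spots. Over the probes of ribosomal proteins that were spotted more than once, the median coefficient of variation was 8.61% there and 2.76% to 4.03% on the other arrays. All 11 kidney tubule and glomerulus markers were above background on every array. In bulk tissue, fewer cells of a type and less RNA per cell cannot be told apart.

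No ribosomal protein gene differed between MSC and NP by the study's rule, which asks in limma for a fold change above 1.5 and an FDR below 0.05. The rule called 0 of 13769 genes (0%), and 0 of the 91 members, and the smallest FDR of a member was 0.334. This departs from the study, which reported 2 genes as higher in MSC by its rule, Tmem52b and Calb1. Neither was called here, and Calb1 had a limma FDR of 0.211. The reason for this departure was not tested. Without adjustment, 5 members were lower in MSC at a limma p under 0.05 and 2 were higher. The 2 higher are Rpl5 and Rpl5l1, whose probes lie at 1 locus and are not independent. The 5 are 5.49% of the members, against 5.09% of all genes that were lower. The 2 are 2.2%, against 6.59% of all genes that were higher. In 2 members every MSC array lay below every NP array (2.2%, all genes 2.14%), and in 2 every MSC array lay above (2.2%, all genes 3.18%). The latter 2 are again Rpl5 and Rpl5l1. The shares on the lower side are near those of all genes. Among the 855 other genes of like brightness, which lie between the 25th and 75th percentile of the members' intensities, 20 (2.34%) were lower and 44 (5.15%) higher at such a p. The share of lower members is above the 2.34% and that of higher members below the 5.15%, which was not tested. Without NP replicate 1, 10 members were lower (11%), against 9.3% of all genes. With NP replicate 3 left out 2 were lower (2.2%), against 3.54% of all genes, and 2 also with NP replicate 4 (all genes 4.71%) or MSC replicate 2 (all genes 3.81%) left out. With MSC replicate 3 or 4 left out 3 were lower (3.3%), against 3.28% and 3.64%. No member was higher without MSC replicate 3 (0%), against 5.34% of all genes, and 1 was (1.1%) with NP replicate 3 left out (all genes 5.44%) or MSC replicate 1 (4.91%), 2 (4.94%) or 4 (5.11%). With the replicate number as a block, 3 were lower (3.3%, all genes 5.04%) and 2 higher (2.2%, all genes 6.3%).

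Under the loess normalisation, the intervals bound the changes more closely than the counts do. They do not take in what another normalisation would change. Differences ran from -0.37 to 0.34 on the log2 scale (MSC minus NP), with a median of -0.021 over the 91 members and -0.006 over all genes. For 85 of the 91 members (93.4%), the 95% interval of the difference lay inside a 1.5-fold change in either direction. The same held for 779 of the 855 genes of like brightness (91.1%) and for 10684 of all 13769 genes (77.6%). The exceptions were Rpl10l, Rpl32, Rpl5, Rpl5l1, Rps27a and Rps4y2. The median standard error of a member was 0.11. The 855 other genes of like brightness had a median difference of 0.018.

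**Figure D1:**
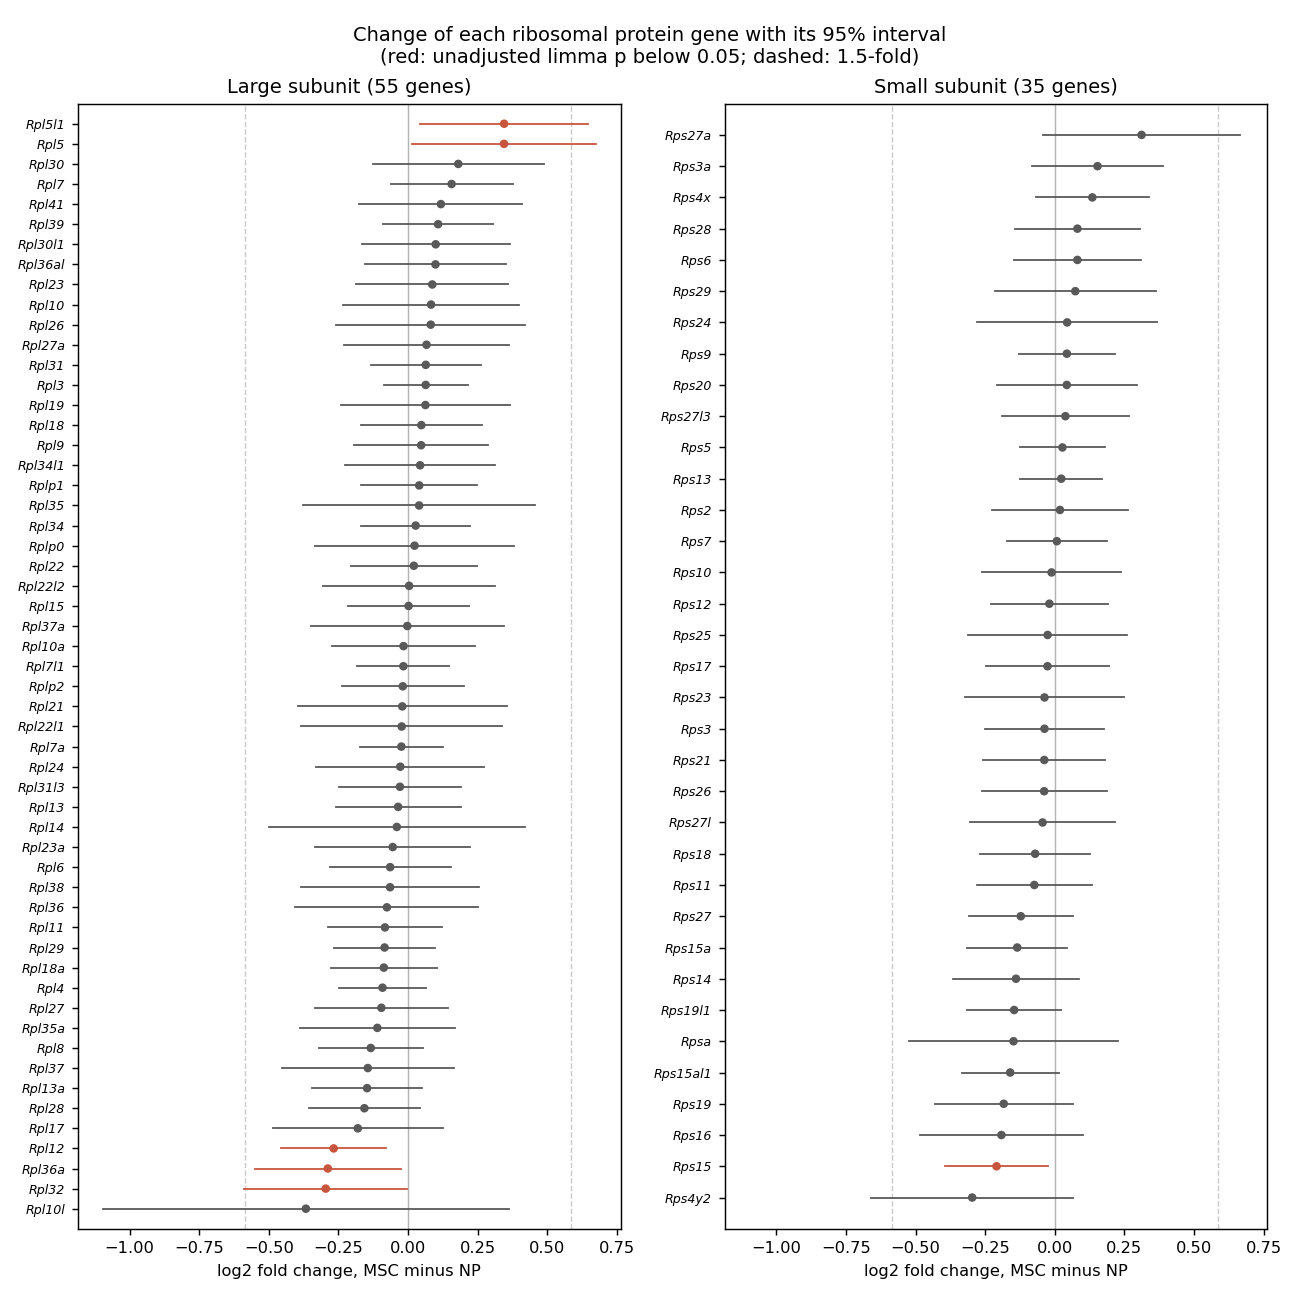
Log2 fold change (MSC minus NP, x axis) of 90 of the 91 ribosomal protein genes with the 95% interval from limma, large subunit on the left and small subunit on the right, ordered by the change. The dashed lines mark a 1.5-fold change, and 84 of the 90 intervals lie between them; red marks the 6 genes with an unadjusted p under 0.05.

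Under the cyclic loess normalisation used here, neither subunit differed between the groups by more than its spread between arrays. This changed for the small subunit without NP replicate 1, and for both subunits under quantile normalisation. The median difference was -0.017 for the large subunit (30 genes below 0 and 25 above) and -0.032 for the small subunit (22 below and 14 above). Without the paralogs and like copies, the medians were -0.020 and -0.026. To follow the subunits on each array, a score was taken as the mean, over the genes of a subunit, of the log2 intensity minus the gene's own mean over the 9 arrays.

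For the large subunit the scores were -0.19, 0.17, 0.04, 0.04 and -0.03 on NP replicates 1 to 5 and -0.09, 0.01, -0.05 and 0.10 on MSC replicates 1 to 4. For the small subunit they were -0.10, 0.13, 0.04, 0.03 and -0.01 on the NP arrays and -0.08, 0.00, -0.03 and 0.03 on the MSC arrays. In both subunits NP replicate 1 was lowest and NP replicate 2 highest, so that the NP arrays span all the MSC arrays. The large subunit averaged 0.0065 ± 0.13 in NP (SD, n = 5) and -0.0082 ± 0.086 in MSC (SD, n = 4), and the difference of -0.015 was far under either SD. Without NP replicate 1 this difference was -0.070, with SDs of 0.082 in NP and 0.081 in MSC. The small subunit averaged 0.017 ± 0.084 in NP and -0.021 ± 0.048 in MSC, a difference of -0.038. Without NP replicate 1 the small subunit averaged 0.036 ± 0.056 in NP (SD, n = 4) and -0.036 ± 0.048 in MSC, and the difference of -0.072 was above both SDs, while the arrays still overlapped. Without NP replicate 2 the score differences were 0.026 for the large and 0.00078 for the small subunit. Within slide 1 the differences were -0.050 for the large and -0.062 for the small subunit, and within slide 2 they were 0.020 and -0.013. The large minus the small score was -0.011 ± 0.049 in NP and 0.013 ± 0.045 in MSC, and the difference of 0.024 again lay within the SD of each group. With 1 array left out this difference ran from 0.0022 (without NP replicate 1) to 0.033 (without MSC replicate 3).

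**Figure D2:**
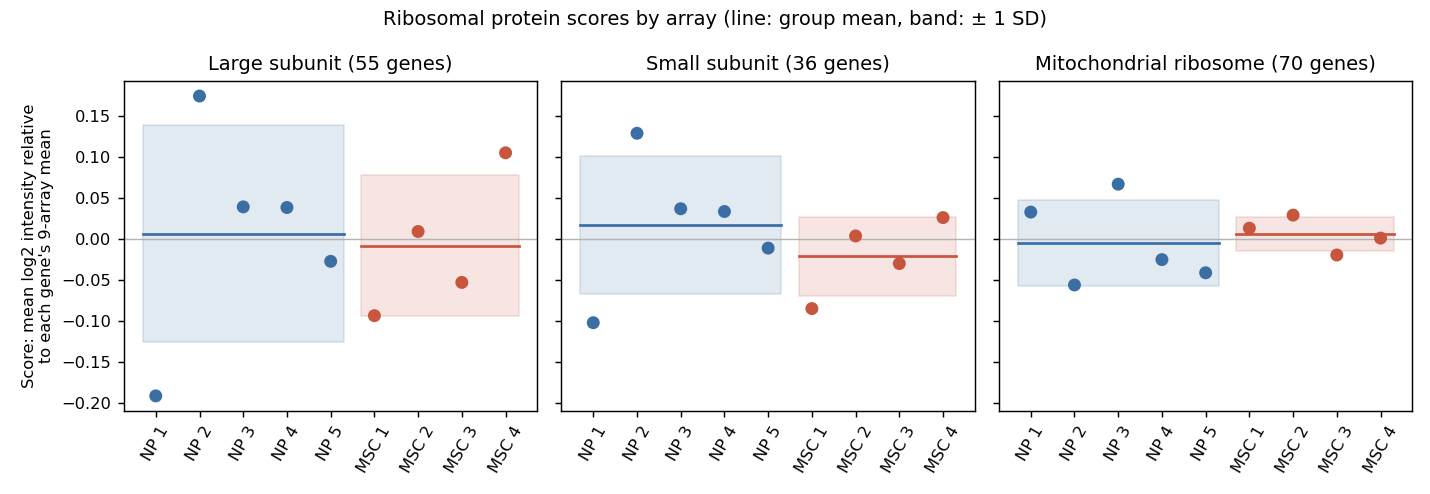
Score of the large subunit, the small subunit and the mitochondrial ribosome on each array (y axis, log2 intensity relative to each gene's mean over 9 arrays), with the group mean as a line and ± 1 SD as a band. The NP points of both cytosolic subunits reach from replicate 1 (-0.19 and -0.10) to replicate 2 (0.17 and 0.13) and enclose the MSC points; the mitochondrial ribosome has another order.

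Under loess the arrays differed more within NP than the groups did from each other. NP replicate 2 was the highest of the 9 arrays for 27 of 55 large and 15 of 36 small subunit genes. NP replicate 1 was the lowest for 27 large and 9 small subunit genes, and only 6 of 55 and 7 of 36 genes lay above their own mean there. MSC replicate 1 was close to it in the small subunit, as the lowest array for 9 genes with 5 of 36 above their mean, and less so in the large subunit, with 9 genes and 10 of 55. On MSC replicate 4, the highest array for 13 large and 7 small subunit genes, 42 of 55 large but 21 of 36 small subunit genes lay above their mean. Members varied more within NP (median SD 0.17) than within MSC (0.12), with the larger SD in NP for 70 of the 91. The same held over all genes (0.19 and 0.13; 10171 of 13769), so the members share this with the rest of the array.

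The order of the arrays depended on the normalisation. Under quantile normalisation, the large subunit score of NP replicates 1 and 2 shrank to -0.046 and 0.045. In the small subunit NP replicate 1 turned from -0.10, the lowest array, to 0.037, below only NP replicate 2 at 0.046. The small subunit then averaged 0.028 ± 0.017 in NP (SD, n = 5) and -0.034 ± 0.017 in MSC (SD, n = 4), and every MSC array (-0.051 to -0.015) lay below every NP array (0.0059 to 0.046). The difference of -0.062 was larger than either SD. The large subunit averaged 0.018 ± 0.039 in NP and -0.023 ± 0.020 in MSC, and the difference of -0.041 was just above the SD of NP, with 4 of 5 NP arrays above all MSC arrays. At an unadjusted limma p under 0.05, 7 members were then lower (7.69%, all genes 5.56%) and 2 higher (2.2%, all genes 5.93%). With the arrays scaled to their median only, the order turned in both subunits. NP replicate 1 was 0.27 and 0.35 and NP replicate 2 was -0.15 and -0.14 in the large and the small subunit. Scaling to the 75th percentile gave -0.088 and 0.25 in the large subunit. Under each of these 3 settings, the number of members called stayed at 0.

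**Figure D3:**
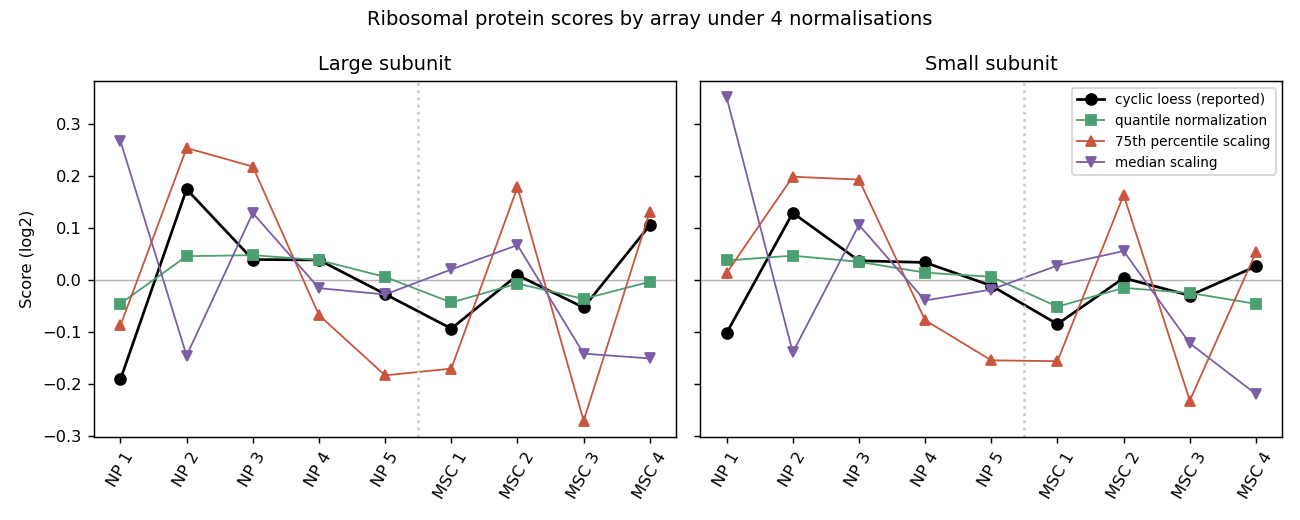
Large and small subunit scores on the 9 arrays (y axis, log2) under the cyclic loess normalisation used here, quantile normalisation, and scaling to the 75th percentile or the median; the dotted line parts NP from MSC. NP replicate 1 is lowest with loess (-0.19 and -0.10) and highest with median scaling (0.27 and 0.35), and with quantile normalisation the small subunit points of MSC (-0.051 to -0.015) lie below those of NP (0.0059 to 0.046).

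Other lists of translation genes give the company in which the members moved, under the loess normalisation. NP replicate 1 was also the lowest array for 8 elongation factors (score -0.24), for 34 initiation factors (-0.21) and for 8 other TOP mRNAs (-0.40). The mitochondrial ribosomal proteins, which build the separate ribosome of the mitochondrion, scored 0.03 on NP replicate 1 and -0.06 on NP replicate 2. Other genes of the members' brightness scored -0.08 and -0.04 there. The part of RNA quality, labelling or tissue in the low values of NP replicate 1 was not tested.

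Members with a small p are described by subunit. Their p-values come from the fit over all genes, and none has an FDR under 0.334. Probe positions are those of the array files, on build rn4, and a level is the normalised log2 intensity of 1 probe, which is not compared with that of another probe. Ribosomal protein genes have many near-identical copies in the genome, so a probe may also take up RNA of a copy.

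In the small subunit, Rps15, a protein of the head of the small subunit, was 16.24, 16.38, 16.42, 16.42 and 16.34 in NP and 16.27, 16.08, 16.24 and 16.02 in MSC. MSC replicate 1 lay above NP replicate 1, so the groups overlapped by 1 pair of arrays. The difference was -0.21 ± 0.08 (limma SE, FDR = 0.390; exact permutation p = 0.0238), and a second probe gave -0.09 ± 0.10. Without MSC replicate 2 or 4 that second probe was kept, and the gene stood at -0.060 and -0.10. The kept probe is printed since its letters choose which RNA is read.
Rps15, kept for the gene (chr7:10927625-10927684, minus strand): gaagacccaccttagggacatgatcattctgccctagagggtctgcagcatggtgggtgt

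On the higher side of the small subunit, no gene reached an unadjusted p under 0.05. Rps27a, made as a fusion with ubiquitin from which the ribosomal protein is cut, came nearest. Its level was 15.98, 15.49, 16.15, 16.20 and 16.21 in NP and 16.11, 16.38, 16.22 and 16.56 in MSC. NP replicate 2, the highest array for 15 of the 36 small subunit genes, was here the lowest. The difference was 0.31 ± 0.16 (limma SE, FDR = 0.479; exact permutation p = 0.119), and a second probe gave 0.20 ± 0.12. Without NP replicate 2 the difference was 0.19.

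In the large subunit, Rpl12, a protein at the base of the stalk, was 14.97, 15.28, 15.07, 15.16 and 15.25 in NP and 14.95, 14.83, 14.92 and 14.80 in MSC. Every MSC array lay below every NP array, the nearest pair (NP replicate 1 and MSC replicate 1) by little. The difference was -0.27 ± 0.09 (limma SE, p = 0.0105, FDR = 0.334; exact permutation p = 0.0159), with -0.22 within slide 1 and -0.34 within slide 2. A second probe shares 45 bases with the first and differs in 2 of them, which are in capitals. It gave -0.20 ± 0.09. With 1 array left out the gene kept its probe and ran from -0.31 to -0.23.
Rpl12, kept for the gene (chr3:11953950-11954157, plus strand): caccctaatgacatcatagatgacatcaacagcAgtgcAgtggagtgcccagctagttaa
Rpl12, second probe (chr3:11953965-11954262, plus strand): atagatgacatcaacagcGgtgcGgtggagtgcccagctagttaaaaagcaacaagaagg
The files give both probes a span longer than the oligo. Of all members, 24 genes have such a probe.

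Rpl36a, a protein of the large subunit encoded on the X chromosome, was 15.87, 16.26, 15.95, 16.05 and 15.86 in NP and 15.54, 15.82, 15.55 and 15.93 in MSC. MSC replicates 1 and 3 were low, and MSC replicate 4 lay among the NP arrays. The difference was -0.29 ± 0.12 (limma SE, FDR = 0.398; exact permutation p = 0.0556). A second probe shares 57 bases and differs in 3 of them (capitals), and gave -0.27 ± 0.10. One more probe, at another place of the transcript, gave -0.19 ± 0.09.
Rpl36a, kept for the gene (chrX:122042681-122043808, plus strand): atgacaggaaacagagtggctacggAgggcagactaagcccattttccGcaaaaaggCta
Rpl36a, second probe (chrX:122042684-122043811, plus strand): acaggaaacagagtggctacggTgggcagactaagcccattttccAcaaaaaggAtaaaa
Its paralog Rpl36al gave 0.10 ± 0.11 (limma FDR = 0.763), and -0.0044 without MSC replicate 4.

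Rpl32 is often used as a reference gene. It was 16.09, 16.66, 16.40, 16.17 and 16.23 in NP and 16.09, 16.11, 16.11 and 15.75 in MSC. MSC replicate 4 lay by itself at the bottom, and the other MSC arrays were level with NP replicate 1. The difference of -0.30 ± 0.13 (limma FDR = 0.424; exact permutation p = 0.0556) belongs to 1 of 4 probes, and the others gave -0.16, -0.09 and 0.03. Without MSC replicate 4 another probe was kept and the gene stood at 0.017.

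Rpl5 carries the 5S RNA into the large subunit together with Rpl11, and both bind Mdm2 when ribosomes fail to assemble. Its level was 15.29, 15.90, 15.92, 15.998 and 16.05 in NP and 16.20, 16.13, 16.27 and 16.11 in MSC. The probe named Rpl5l1 was 15.26, 15.70, 15.74, 15.97 and 15.87 in NP and 15.97, 16.02, 16.19 and 16.03 in MSC. Both had every MSC array above every NP array (MSC replicate 1 and NP replicate 4 of Rpl5l1 nearly level) and NP replicate 1 as the lowest of all. The differences were 0.34 ± 0.15 for Rpl5 (limma FDR = 0.414; exact permutation p = 0.0238) and 0.34 ± 0.14 for Rpl5l1 (limma FDR = 0.390; exact permutation p = 0.0317). The files place both probes side by side at 1 locus, so the 2 are not independent, and their sequences are shown for that reason.
Rpl5 (chr14:2401385-2401444, minus strand): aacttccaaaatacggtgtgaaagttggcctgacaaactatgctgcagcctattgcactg
Rpl5l1 (chr14:2401281-2401340, minus strand): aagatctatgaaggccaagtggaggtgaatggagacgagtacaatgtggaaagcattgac
Within slide 1, which holds NP replicate 1, Rpl5 differed by 0.46, and within slide 2 by 0.17. Without NP replicate 1 the differences were 0.21 for Rpl5 and 0.23 for Rpl5l1. RefSeq now lists a gene named Rpl5l1 on chromosome 9 of another build, so the name on the array may not stand for it. Rpl11, the partner of Rpl5, gave -0.08 ± 0.09 (limma FDR = 0.747), and from -0.13 without NP replicate 1 to -0.021 without NP replicate 2.

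**Figure D4:**
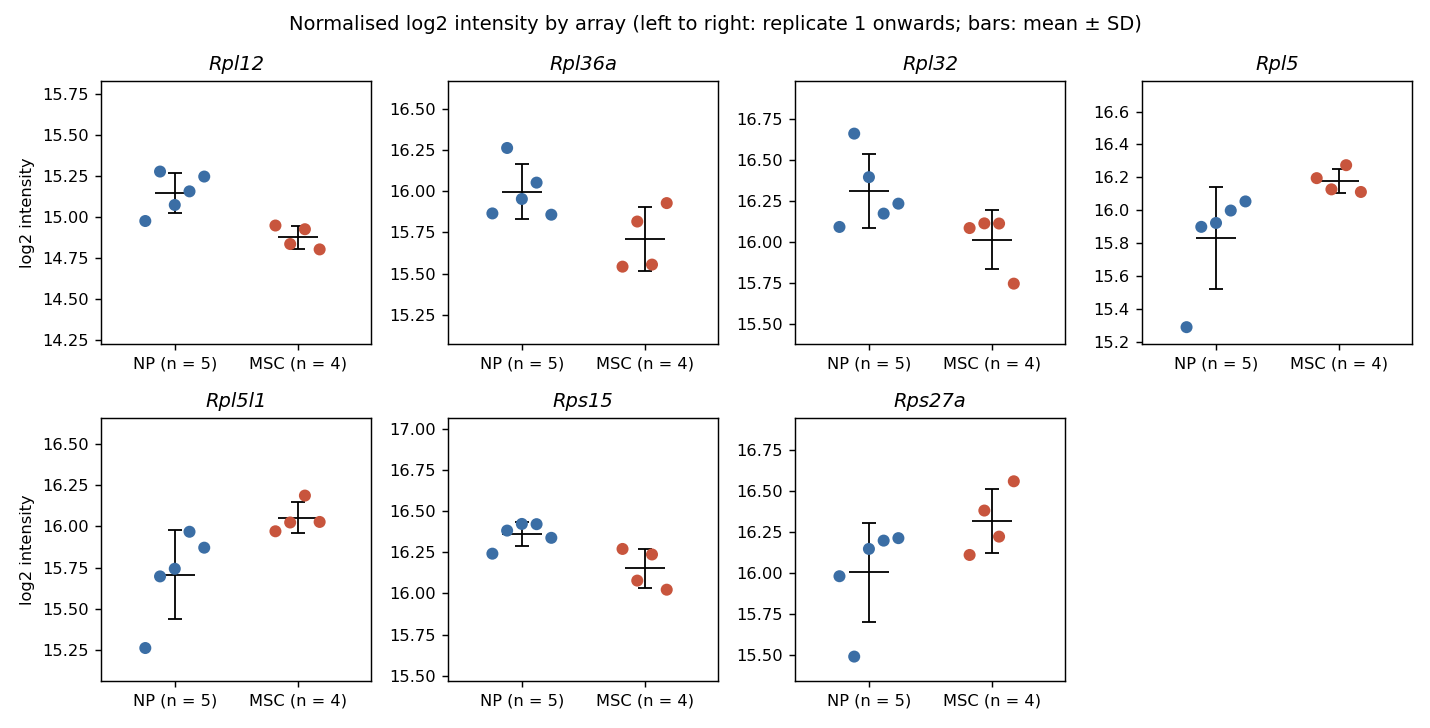
Normalised log2 intensity (y axis, same height of scale in each panel) of 7 ribosomal protein genes on 5 NP and 4 MSC arrays, each point an array and the bars the mean ± SD. MSC points of Rpl12 lie below all NP points, those of Rpl5 and Rpl5l1 above, and the groups overlap in the other 4 panels.

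Of the remaining members with a known special role, none had an unadjusted limma p under 0.05. The stalk proteins Rplp0, Rplp1 and Rplp2 differed by 0.023 ± 0.16, 0.040 ± 0.09 and -0.019 ± 0.10 (limma SE). With 1 array left out all of them took either sign, Rplp0 from -0.087 to 0.12, Rplp1 from -0.017 to 0.089 and Rplp2 from -0.081 to 0.043, each lowest without NP replicate 1. Rplp0 was 18.32, 19.14, 18.79, 18.79 and 18.65 in NP and 18.58, 18.82, 18.61 and 19.04 in MSC. Its range within NP, from replicate 1 to replicate 2, is many times the group difference. Rpl3, a protein next to the centre of peptide bond formation, gave 0.063 ± 0.07, and Rpl10, which joins the large subunit at the last step of its assembly, gave 0.082 ± 0.14. Rpl10 stood at -0.13 without NP replicate 1, where the kept probe changed along with the arrays, and at -0.16 with median scaling. Rpl3 stood at -0.029 with median scaling, and ran from 0.036 to 0.078 with 1 array left out.

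In the small subunit, Rps6, the protein that S6 kinase phosphorylates, was 16.29, 16.24, 16.65, 16.57 and 16.33 in NP and 16.42, 16.55, 16.45 and 16.56 in MSC. The groups overlapped throughout, with a difference of 0.081 ± 0.10 (limma SE). With 1 array left out Rps6 ran from 0.041 to 0.14. Rps3, which lies at the entry of the mRNA channel, gave -0.037 ± 0.10, and 0.030 without NP replicate 2. Rps14 and Rps19, which are lost or mutated in human red cell aplasias and dysplasias, gave -0.14 ± 0.10 and -0.18 ± 0.11 (limma FDR = 0.611 and 0.536). Rps14 stood at 0.049 without MSC replicate 1, where the kept probe changed along with the arrays, and at 0.028 with its brightest probe. Rps19 ran from -0.25 without NP replicate 1 to -0.11 without NP replicate 2. Rpsa, also known as a laminin receptor, gave -0.15 ± 0.17, and a second probe 0.13 ± 0.16. The gene stood at 0.22 without NP replicate 2, where the kept probe changed along with the arrays. Rps4x gave 0.13 ± 0.09, and from 0.080 (without NP replicate 3) to 0.17 (without NP replicate 5). The reference genes Rpl13a and Rps18 gave -0.15 ± 0.09 and -0.071 ± 0.09 (limma FDR = 0.536 and 0.783). Without NP replicate 1 they stood at -0.20 and -0.14, while Rpl13a was nearest to 0 without NP replicate 2 (-0.094) and Rps18 without MSC replicate 4 (-0.047).

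Among the paralogs, the kept probe of Rpl22l1 stood at 10.23 ± 0.31 in NP and 10.21 ± 0.19 in MSC, a difference of -0.023. A second probe of this gene was far brighter, at 15.61 ± 0.10 in NP and 15.67 ± 0.23 in MSC, and gave 0.066. Its partner gene Rpl22 gave 0.021 ± 0.10, and from -0.033 (without MSC replicate 4) to 0.083 (without MSC replicate 1). Rps27l, a p53 target, gave -0.044 ± 0.12 (0.15 within slide 2), and Rpl7l1 gave -0.017 ± 0.07 with the smallest spread of these (SD 0.05 in NP). Rpl10l had the widest spread of any member. It was 8.996, 8.22, 9.47, 9.95 and 9.85 in NP and 9.37, 8.75, 8.82 and 8.78 in MSC, a difference of -0.37 ± 0.33 that was 0.17 within slide 1 and -1.10 within slide 2. With 1 array left out it ran from -0.63 (without NP replicate 2) to -0.20 (without NP replicate 4). The 5 members that did not pass the filter were Rpl17l1, Rpl31l1, Rpl39l, Rpl3l (a muscle form of Rpl3) and Rps19bp1. Their probes read 7.92 to 8.11 on average in either group, and all were not well above background on every array, except for Rpl39l on 1 NP array.

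For 52 members several probes passed, which allows each gene to be measured more than once. The probes of a gene differed in their log2 fold change by 0.069 in the median and by up to 0.33 (Rpl32). In 15 genes the probes had opposite signs. Wide ranges were also those of Rpsa (0.28), Rpl21 (0.23) and Rps4y2 (0.23). Counted by probe, 8 of 160 were lower in MSC and 2 higher at an unadjusted limma p under 0.05, which is 5% and 1.25%, against 5.19% and 6.51% of all 15635 probes. On the array, 23 pairs of probes of the same gene overlap by 30 bases or more, and 19 of these pairs, in 13 genes, differ by up to 7 bases, as those of Rpl12 and Rpl36a do. All probes of a gene are read from the same 9 arrays and are no replicates of the condition.

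**Figure D5:**
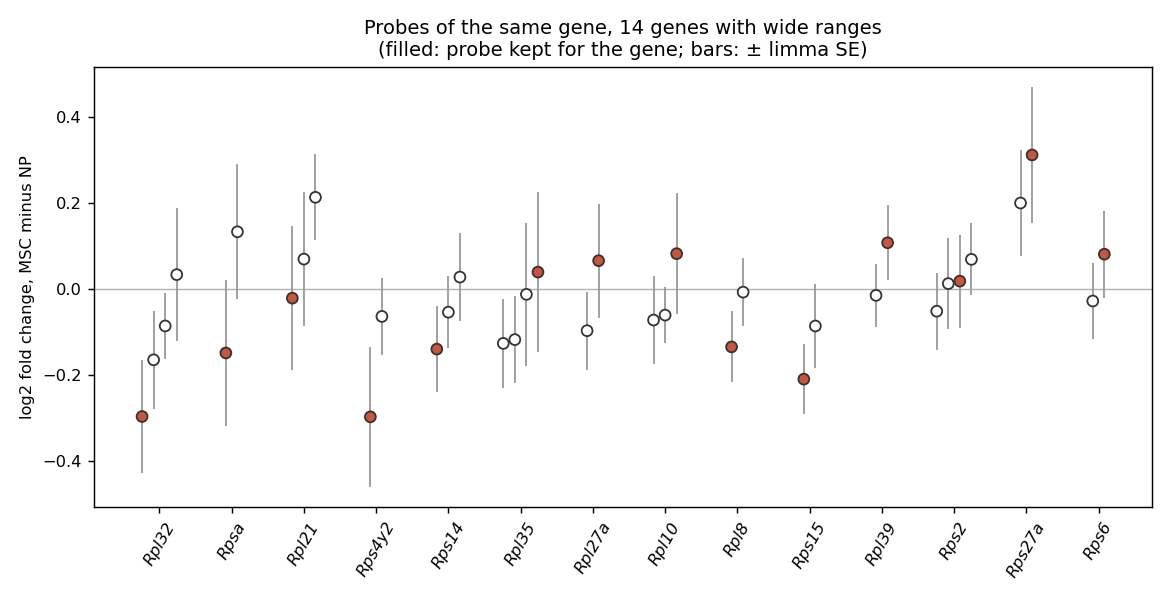
Log2 fold change (MSC minus NP, y axis) of each probe, ± limma SE, for 14 ribosomal protein genes whose probes differ widely; filled points are the probes of largest variance, which stand for the gene. In Rpl32 the probes run from -0.30 to 0.03 and in Rpsa from -0.15 to 0.13, while both probes of Rps27a are above 0.

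Genes that build and use ribosomes gave no call either. Of 50 ribosome biogenesis genes, 4 were lower in MSC (Dkc1, Nop56, Ppan and Rrp9) and 3 higher (Npm1, Ncl and Rpf1) at an unadjusted limma p under 0.05, with a median of -0.015. Of 34 initiation factors 0 were lower and 3 higher (Eif3g, Eif2s2 and Eif3m). Of 8 elongation factors only Eef2, which moves the ribosome along the mRNA, had such a p, with 0.39 ± 0.14 (FDR = 0.356). Among 9 regulators of TOP mRNAs, Rps6kb2 gave -0.19 ± 0.08 (limma FDR = 0.407), while Mtor gave 0.057 ± 0.07 and Larp1 -0.13 ± 0.11. Of 8 other TOP mRNAs 3 were higher (Npm1, Vim and Eef2). Of 70 mitochondrial ribosomal proteins 2 were lower and 6 higher, with a median of 0.017. All these lists are read against the same background of 5.09% lower and 6.59% higher.

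Markers of other cells differed between arrays. The list of red cell genes had 3 of 4 above background on every array. All 3 that were tested were lower in MSC at an unadjusted limma p under 0.05 (median -1.74, smallest FDR 0.347), and the list's summed intensity (linear, divided by 1000) was 487 to 706 in NP and 94.1 to 682 in MSC. The score of these 3 genes, taken as for the subunits, was -3.20, 0.64, -1.40 and 0.09 on MSC replicates 1 to 4 and 0.10 to 1.30 in NP. MSC replicates 1 and 3 were low, and the difference of -1.74 was -0.997 without MSC replicate 1. Of 6 fat markers 4 were above background on every array and Lep on none. Their sum was 5.53 to 10.9 in NP and 6.05 to 52.3 in MSC, highest on MSC replicate 3, and the median difference was 1.33 over 4 genes tested, of which 2 had such a p. Their score differed by -0.15 within slide 1 and by 2.84 within slide 2, and the difference of 1.26 over all arrays was 0.78 without MSC replicate 3. The summed markers of leukocytes (6 of 8 above background throughout) were 40.8 to 82.9 in NP and 52.0 to 96.5 in MSC. The summed markers of MSC (6 of 9) were 20.0 to 40.6 and 26.4 to 37.4, lowest on NP replicate 1 and highest on NP replicate 2, as the members were. Of 6 MSC markers tested, Col1a1, a chain of type I collagen, was higher at such a p, with 1.06 ± 0.29 (limma FDR = 0.334). Of the 11 kidney markers, 4 were higher at such a p and none lower. They were Calb1, a calcium-binding protein of the distal tubule, with 1.13 ± 0.16 (limma FDR = 0.211), the salt transporters Slc12a3 and Slc12a1 with 0.59 and 0.50, and the water channel Aqp1 with 0.24. The kidney list summed to 1242 to 1769 in NP and 1521 to 2136 in MSC, lowest on NP replicate 1 and highest on MSC replicate 4. The part of these cells in the members' values was not tested.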

How the data were processed

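The authors hybridised Cy3-labelled cRNA of rat kidneys (5 NP, 4 MSC) to SurePrint G3 arrays and deposited the intensity of each spot, read by Feature Extraction 10.7.3.1, and a table of log2 values that they had normalised and filtered. Here the raw mean intensity was log2 transformed and normalised by cyclic loess without background subtraction (limma 3.58.1, R 4.3.3). Spots with outlier flags were left out and spots of a probe averaged. A probe was kept (15635 of 30367) when its log2 value passed the negative controls' 95th percentile by a factor of 1.1 on 4 arrays or more, which is 1 reading of the filter in the methods. The probe of largest variance stood for a gene. Against the deposited log2 values, r was 0.9999 to 0.99997. Groups were compared with limma and the Benjamini-Hochberg FDR over all 13769 genes. Replicates are separate kidneys.

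For 38 members named by rule (smallest p in each subunit, known roles, widest range between probes), exact permutation tests ran over 126 splits of the arrays, with 0.00794 as the smallest possible p, unadjusted. The values of 1 gene are not reported here, although the counts over all members include it. The members and lists were chosen with earlier results of these data known. On simulated arrays with 200 of 13769 genes changed, 86% of those changed 2-fold and 97% of those changed 4-fold were called. Whether these shares hold for the measured arrays was not tested. There Calb1, with a log2 difference of 1.13, had a limma FDR of 0.211 and was not called. The members' log2 differences ran from -0.37 to 0.34, and the share called at such sizes was not tested. No per-sample column was left unused (0). Probe sequences and rn4 positions are the deposited ones, start sites are from RefSeq (GRCr8), and gene names are those of the array. The number of arrays limits the precision. The alternatives changed the normalisation, background, filter, choice of probe, weights, blocks and arrays.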

Additional observations from a re-analysis of the deposited data

Results flagged for a closer look

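Within the 5 NP or the 4 MSC arrays, 6 values, all of named members, lay far from the rest of their group, by Dixon's ratio of the gap to the range. This is 6 of 82 groups tested, the NP and the MSC group of 38 named members and 3 scores, and chance gives about 1 in 20, or 4.1. Rpl32 on MSC replicate 4 was 15.75 against 16.09 to 16.11 (ratio 0.922). Without that array another probe was kept for the gene, with a difference of 0.017, so the array and the probe changed together. Rpl5 on NP replicate 1 was 15.29 against 15.90 to 16.05 (ratio 0.798), and Rps18 on the same array was 17.65 against 17.95 to 17.996 (ratio 0.869). Rpl28 on NP replicate 2 was 17.30 against 16.97 to 17.02 (ratio 0.851). Rpl10l on MSC replicate 1 was 9.37 against 8.75 to 8.82 (ratio 0.883). Rpl22l1 on NP replicate 5 was 9.69 against 10.30 to 10.45 (ratio 0.808). Causes were not tested.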

How the results depend on the processing

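Under 25 alternatives with a test the number of members called was 0 each time. The 5 members lower at an unadjusted limma p under 0.05 (5.49%, against 5.09% of all genes) became 1 with scaling to the 75th percentile (1.1%, all genes 2.88%), 1 with the processed signal (1.1%, all genes 3.95%), 3 with median scaling (3.3%, all genes 4.04%), 3 with the mean of the probes (3.3%, all genes 5.13%), 2 with the brightest probe (2.2%, all genes 5.28%), 10 with array weights (11%, all genes 8.44%), and 2 to 10 with 1 array left out (2 without NP replicate 3, 10 without NP replicate 1). The 2 higher (2.2%, all genes 6.59%) became 0 with median scaling, where 2.04% of all genes were higher, 0 with array weights, where 8.1% were, and 0 to 3 with 1 array left out (0 without MSC replicate 3, 3 without NP replicate 2, which is 3.3%, all genes 6.18%). With NP replicates 1 and 2 both left out, an alternative chosen after seeing the data, 8 were lower (8.79%, all genes 7.68%) and 1 higher (1.1%, all genes 6.45%). The comparison of the subunit scores depended on the normalisation: the group difference of the small subunit, -0.038 with loess, was -0.062 with quantile normalisation, where the groups did not overlap, and -0.077 and -0.12 with scaling to the 75th percentile or the median, where they did. That of the large subunit was -0.015 with loess, -0.041 with quantile normalisation, and -0.059 and -0.093 with scaling to the 75th percentile or the median. The median of the gene differences was 0.079 for the large and 0.050 for the small subunit within slide 2 alone. With median scaling these were -0.085 and -0.098. Leaving out 1 array took the large subunit median from -0.077 (without NP replicate 1) to 0.046 (without NP replicate 2) and the small from -0.061 to 0.025. For single members with 1 array left out, the probe that stands for the gene was chosen anew. Rpl32 then ran from -0.35 (without NP replicate 1) to 0.017 (without MSC replicate 4), where it turned with another probe. With the replicate block, 3 members were lower (3.3%, against 5.04% of all genes) and 0 members were called. Same-numbered arrays had an r of their deviations between -0.347 and 0.326. The best MSC partner carried the same number for replicates 1 and 2, and another number for replicates 3 and 4. So few correlations cannot settle whether the numbers pair the samples. For single named members, 969 of 988 values moved by less than the spread between arrays. In 80 of the 988, over 20 genes, the sign differed from that first given, 71 of them within that spread. The 9 beyond it were Rpl32, the 1 gene of these with an unadjusted p under 0.05, Rps14 (2 settings), Rpsa, Rpl10, Rpl3, Rpl7, Rpl39 and Rps27l, and no FDR was under 0.120. Median scaling shifted the median of all genes to -0.039. Probes close to the negative controls, as for Rpl10l, are limited by their low signal.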
